A study of Sus scrofa with 6 samples.

Results

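Amino acid transporters of the SLC1, SLC3, SLC6, SLC7, SLC36, SLC38 and SLC43 families were examined in IPEC-J2 cells with and without chenodeoxycholic acid (CDCA). The members were all gene IDs whose deposited name begins with one of these 7 family names followed by a number, which gave 57 of the 31908 listed pig gene IDs, with 147 listed transcripts. Of these, 56 encode transporters of the families. The other, SLC7A6OS, is named for its place next to SLC7A6 and is not a transporter. Its values are described apart, but it is included in the counts and medians of the members. SLC38A1, the glutamine carrier SNAT1, carries no name in the deposited table and is therefore outside the pattern. SLC7A6 was not analysed here.

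Amino acids do not cross the cell membrane unaided, and these families carry them in several ways. SLC3A2 and SLC3A1 are heavy chains, single-span glycoproteins that pair with a light chain of the SLC7 family and bring it to the cell surface, whereas the light chain exchanges amino acids across the membrane. The SLC1, SLC6 and SLC38 families use the sodium gradient or exchange to bring in acidic amino acids such as glutamate and small neutral ones such as glycine and glutamine, and the SLC36 family uses protons. In the small intestine, apical carriers take up amino acids from the lumen and basolateral carriers release them to the blood. In many cell types, the genes of several of these carriers are transcriptional targets in the response to amino acid shortage.

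IPEC-J2, a pig jejunal epithelial line, was the source of every library. The CON group received PBS and the CDCA group received CDCA, each for 24 h, with 3 libraries per group (n = 3), and the study's methods give the CDCA concentration as 50 μM. The study calls the libraries of a group biological replicates, without saying how the cultures were kept apart, and the p-values cover the spread between these libraries of a single line, which may be in part technical. Expression was deposited as transcripts per 1000000 transcripts (TPM), which relates a transcript's reads to its length and to the library, and no read counts were given. How many reads each value rests on is therefore unknown.

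The listed TPM summed to 357957 to 366073 in the CON libraries and to 351770 to 363387 in the CDCA libraries, whereas all transcripts of a library would make up 1000000. A gene's value was the sum of its listed transcripts and can miss others. Pearson's r of log2(TPM + 1) over the 8708 tested genes was between 0.972 and 0.980 within groups and between 0.927 and 0.934 across them. Of 10 epithelial markers, 9 were listed and 5 reached a mean of 1 TPM, among them EPCAM with 122 TPM in CON and 160 TPM in CDCA, while CDH1, OCLN and VIL1 stayed under 1 TPM and CLDN3 was listed at 0. The summed level of the listed epithelial markers was 647 to 668 TPM in CON and 1208 to 1347 TPM in CDCA, with CLDN4 making up most of the gap at 225 TPM in CON and 806 TPM in CDCA. For the immune markers, this sum was 1.22 to 2.49 TPM in CON and 1.84 to 2.05 TPM in CDCA. The endothelial markers summed to 1.80 to 2.31 TPM in CON and 1.23 to 1.49 TPM in CDCA, and the fibroblast markers to 1.27 to 1.78 TPM and 0.97 to 1.13 TPM. The part of these markers in the results was not tested.

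Compared to the CON group, the CDCA group had higher levels of the cystine carrier SLC7A11, its heavy chain SLC3A2, the glycine carrier SLC6A9, the creatine carrier SLC6A8, the neutral amino acid exchangers SLC1A4 and SLC1A5, and the sodium-coupled carriers SLC38A2 and SLC38A3. The levels of SLC43A3 and of the heavy chain SLC3A1 were lower, but the call of SLC3A1 was lost in most fits that left out a single library. The genes whose mean over the 6 libraries reached 1 TPM were tested by limma on log2(TPM + 1), and a call needed both an adjusted p under 0.05 and a log2 fold change above 1 in size. Of the 57 members, 17 passed this filter, namely 16 transporters and SLC7A6OS. Of these 17, 8 were called higher and 2 lower. Over all 8708 tested genes, 3.51% were called higher and 3.9% lower. Without the limit on the fold change, 10 of the 17 were higher with an adjusted p under 0.05, against 29.3% of all tested genes, and 3 were lower, against 23.9%. The 10 and 3 genes were also those whose libraries did not overlap between the groups, a pattern seen with CDCA above CON in 33.7% and with CDCA below CON in 27.8% of all tested genes.

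The median log2 fold change of the 17 was 0.78, beside 0.05 for all tested genes, whose quartiles were -0.28 and 0.36. Among the 17, SLC38A3 and SLC38A10 passed the filter only through their CDCA values, and 7 of the 8 called higher had a mean of at least 1 TPM in both groups. In such bulk libraries, a change in the number of cells of a kind and a change in the RNA per cell cannot be told apart. With the mtDNA-encoded genes left out of the library totals, the median of all tested genes shifted by -0.13 and the called genes went from 306 higher and 340 lower to 221 higher and 462 lower, whereas the counts of called members remained 8 and 2. The count called lower was less stable elsewhere, with 1 when no filter was used and 0 without CDCA replicate 2.

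**Figure D1:**
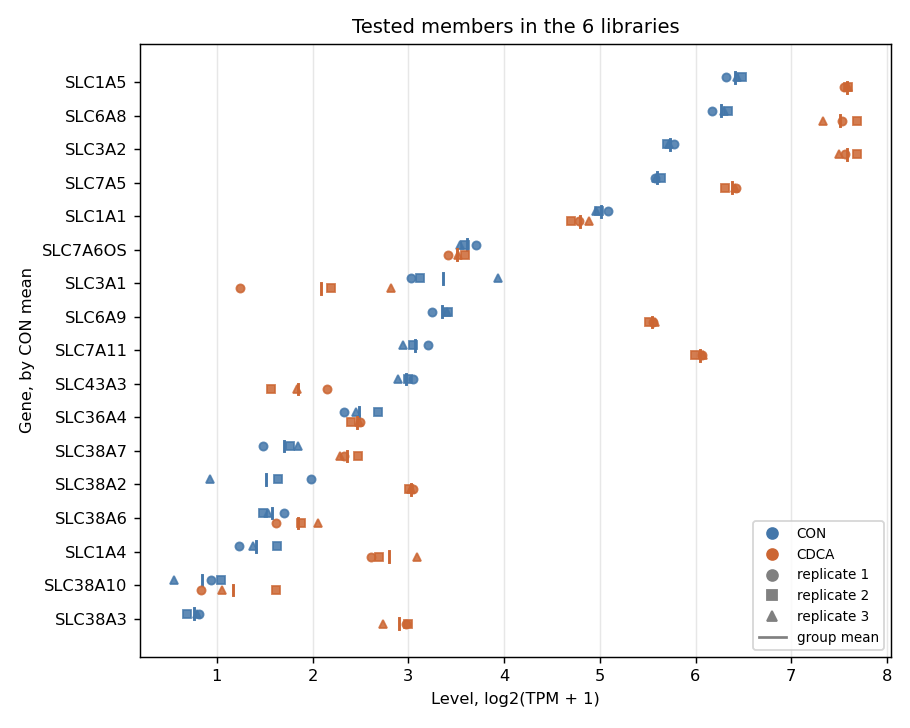
Level of each of the 17 tested members in log2(TPM + 1) on the x axis, with genes in order of their CON mean on the y axis. Colors give the group, marker shapes the replicate number and short vertical lines the group means; CDCA points lie wholly to the right of CON points for 10 genes, wholly to the left for 3, and overlap for 4.

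The plot of levels by library shows that the separation between groups was wide for SLC7A11, SLC6A9 and SLC3A2 and that the CON libraries of SLC38A2 and the libraries of both groups of SLC3A1 were scattered. The plot of fold changes with their errors places the same genes in order of the difference.

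**Figure D2:**
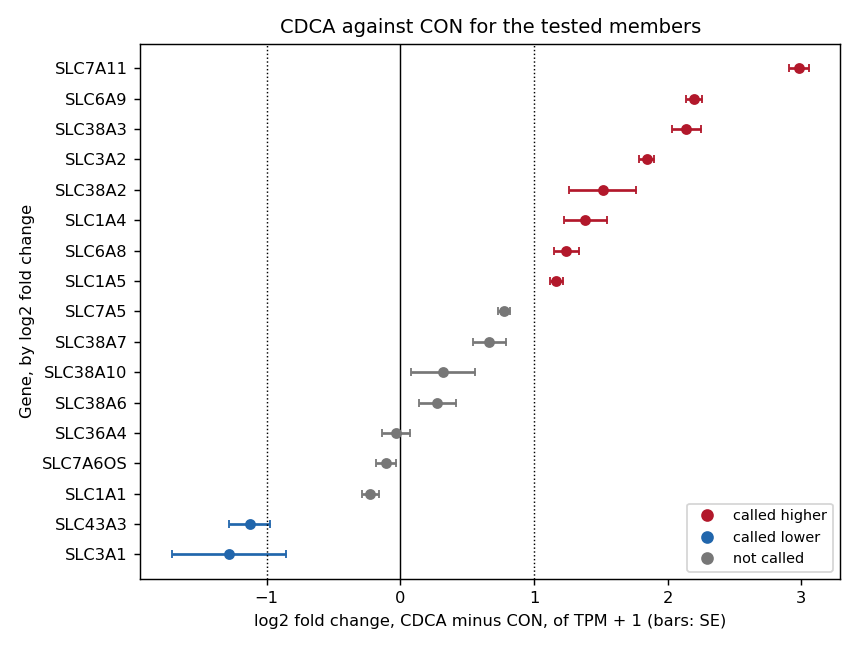
Log2 fold change of TPM + 1, CDCA minus CON, on the x axis for each of the 17 tested members on the y axis, with bars for the standard error from limma. Dotted lines mark -1 and 1; red points were called higher (8), blue points lower (2) and grey points were not called (7).

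On the log2(TPM + 1) scale, the largest rise among the tested members was that of SLC7A11 (ENSSSCG00000022649), although the ratio of means was higher for SLC38A3. SLC7A11 encodes xCT, the light chain that imports cystine in exchange for glutamate and so supplies cysteine for glutathione. It was listed at 8.23, 7.25 and 6.70 TPM in CON replicates 1 to 3 and at 65.95, 62.79 and 66.60 TPM in CDCA replicates 1 to 3. All 3 CDCA libraries lay far above all 3 CON libraries, and the ratio of the means was 8.81. Its log2 fold change of 2.98 (SE 0.07, adjusted p = 2.5e-06) was rank 10 from the top among all 8708 tested genes. Both of its listed transcripts were higher in every CDCA library, the more abundant going from a mean of 6.29 to 55.61 TPM and the other from 1.11 to 9.5 TPM.

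SLC3A2 (ENSSSCG00000022404) encodes 4F2hc, also known as CD98, the heavy chain shared by SLC7A11 and SLC7A5. SLC3A2 was listed at 53.78, 51.02 and 51.99 TPM in CON against 187.47, 204.38 and 179.48 TPM in CDCA. The groups did not overlap, and the ratio of the means was 3.64. The log2 fold change was 1.84 (SE 0.06, adjusted p = 3.3e-06). Its transcript of rank 1 went from a mean of 30.5 to 118 TPM and that of rank 2 from 20.4 to 70.8 TPM, while the third stayed at 1.32 and 1.96 TPM. The transcript of rank 1 held 58.4% of the gene's TPM in CON and 61.8% in CDCA.

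SLC7A5 (ENSSSCG00000032996) encodes LAT1, the light chain that exchanges large neutral amino acids such as leucine. It was listed at 46.71, 48.85 and 47.02 TPM in CON against 84.54, 78.33 and 84.01 TPM in CDCA. Every CDCA library was above every CON library, with a ratio of means of 1.73. The log2 fold change was 0.78 (SE 0.05, adjusted p = 3.0e-05), under the limit for a call.

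The other light chains were weakly listed. SLC7A8 (LAT2, an exchanger of neutral amino acids) was at 0.26, 0.30 and 0.34 TPM in CON against 0.76, 0.81 and 0.84 TPM in CDCA. SLC7A7 (y+LAT1, a basolateral exit route for cationic amino acids) was at 1.04, 0.65 and 0.67 TPM in CON against 0.37, 0.79 and 0.36 TPM in CDCA, and its groups overlapped. SLC7A10 was listed at 0 in all libraries.

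TPM relate reads to transcript length, so the levels of these chains were set side by side. Transcripts missing from the deposited table could shift each ratio between genes by an unknown amount. The sum of SLC7A5, SLC7A7, SLC7A8, SLC7A10 and SLC7A11, the light chains of SLC3A2 among the members, was 56.0 ± 1.2 TPM (SD, n = 3) in CON but 149 ± 5.2 TPM (SD, n = 3) in CDCA. SLC3A2 itself stood at 0.933 ± 0.034 of this sum (SD, n = 3) in CON and at 1.28 ± 0.13 (SD, n = 3) in CDCA, a ratio that was higher in every CDCA library than in any CON library. SLC7A6, which also encodes a light chain of SLC3A2, is not in this sum, so the ratios do not give the heavy chain against all of its partners. SLC7A11 made up 13.2% ± 1.3 (SD, n = 3) of the light chain sum in CON and 43.8% ± 0.26 (SD, n = 3) in CDCA. The ratio of SLC7A11 to SLC7A5 was 0.176, 0.148 and 0.142 in CON and 0.780, 0.802 and 0.793 in CDCA, and these values did not overlap. These sums and ratios are descriptions of the mRNA and were not tested.

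**Figure D3:**
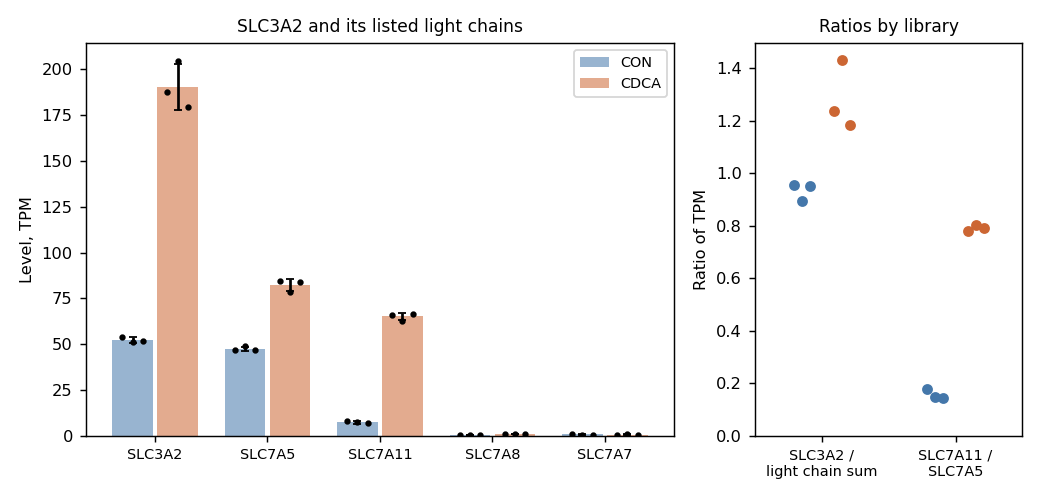
Left, level in TPM of SLC3A2 and 4 of its listed light chains, with bars for group means, error bars for SD and dots for the 3 libraries of each group. Right, ratio of SLC3A2 to the summed light chains and of SLC7A11 to SLC7A5 in each library, in the same colors; both ratios were higher in all 3 CDCA libraries than in any CON library.

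The other heavy chain went the opposite way. SLC3A1 (ENSSSCG00000008449) encodes rBAT, which pairs with SLC7A9 for apical uptake of cystine and cationic amino acids. SLC3A1 was listed at 7.18, 7.73 and 14.33 TPM in CON against 1.36, 3.56 and 6.08 TPM in CDCA. The groups did not overlap, but the lowest CON library lay only just above the highest CDCA library. The CON mean of 9.75 ± 4.0 TPM (SD, n = 3) compared with a CDCA mean of 3.67 ± 2.4 TPM (SD, n = 3), and the log2 fold change was -1.28 (SE 0.43, adjusted p = 0.041). This call was lost when any library but CDCA replicate 3 was left out, where the adjusted p was 0.057, 0.068 and 0.12 without CON replicates 1, 2 and 3 and 0.078 and 0.081 without CDCA replicates 1 and 2. SLC7A9, its light chain, was listed at 0.02 TPM in CON replicate 2 and at 0 in the other 5 libraries, and SLC7A13, another partner of rBAT, at 0 in all 6.

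Among the SLC1 family, the neutral amino acid exchangers were higher and the glutamate carrier was slightly lower in CDCA. SLC1A5 (ENSSSCG00000003105) encodes ASCT2, which exchanges glutamine and other neutral amino acids and was the member with the highest mean level over the 6 libraries. It was listed at 78.94, 88.56 and 85.33 TPM in CON against 186.77, 191.65 and 192.60 TPM in CDCA. The groups were far apart, with a ratio of means of 2.26 and a log2 fold change of 1.17 (SE 0.05, adjusted p = 9.8e-06). Nearly all of its TPM came from 1 of its 2 listed transcripts.

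SLC1A4 (ENSSSCG00000028282) encodes ASCT1, an exchanger of alanine, serine, cysteine and threonine. SLC1A4 was listed at 1.35, 2.08 and 1.59 TPM in CON against 5.09, 5.45 and 7.5 TPM in CDCA. The lowest CDCA library was well above the highest CON library, and the log2 fold change was 1.38 (SE 0.16, adjusted p = 0.00056). SLC1A1 (ENSSSCG00000005222), which encodes the glutamate, aspartate and cysteine carrier EAAT3, was listed at 33.05, 30.82 and 30.10 TPM in CON against 26.49, 25.05 and 28.59 TPM in CDCA. The CDCA libraries lay below the CON libraries by a small margin, and the log2 fold change was -0.22 (SE 0.06, adjusted p = 0.024). With single libraries left out, the adjusted p of SLC1A1 was over 0.05 in 4 of 6 fits and reached 0.070. The other glutamate carriers of the family, SLC1A2, SLC1A3, SLC1A6 and SLC1A7, were listed between 0 and 0.19 TPM.

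The SLC38 family holds sodium-coupled carriers of small neutral amino acids, and 5 of its 10 members were tested. SLC38A3 (ENSSSCG00000011397) encodes SNAT3, a system N carrier of glutamine, histidine and asparagine. It was listed at 0.76, 0.61 and 0.73 TPM in CON against 6.88, 6.99 and 5.65 TPM in CDCA, a ratio of means of 9.30. It thus went from under 1 TPM to over 5 TPM in every library, with a log2 fold change of 2.14 (SE 0.11, adjusted p = 1.8e-05). Since the pseudocount is larger than its CON level, the log2 fold change lies below that of the ratio, and with a pseudocount of 0.1 TPM it was 3.04. Of its 6 listed transcripts, the most abundant went from a mean of 0.48 to 3.33 TPM and the next from 0.213 to 3.15 TPM.

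SLC38A2 (ENSSSCG00000000808) encodes SNAT2, the system A carrier that many cells raise when amino acids are short. Its single listed transcript was at 2.95, 2.11 and 0.90 TPM in CON against 7.30, 7.04 and 7.18 TPM in CDCA. The CDCA libraries were close together and all above the scattered CON libraries. The log2 fold change was 1.52 (SE 0.25, adjusted p = 0.0025) and ranged from 1.22 to 1.75 in the fits without a single library. Its neighbour in the RefSeq gene order (assembly Sscrofa11.1), SLC38A4, also a system A carrier, was listed at 0 to 0.04 TPM. SLC38A1, on the other side with 1 protein-coding gene in between, was at 0.75, 0.72 and 0.45 TPM in CON against 0.52, 0.30 and 0.68 TPM in CDCA, and its groups overlapped.

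None of the other 3 tested SLC38 genes was called. SLC38A7, which encodes SNAT7, a lysosomal exporter of glutamine and asparagine, was listed at 1.79, 2.40 and 2.61 TPM in CON against 4.02, 4.56 and 3.88 TPM in CDCA. The groups did not overlap, and the log2 fold change of 0.66 (SE 0.12, adjusted p = 0.0042) was under the limit for a call. SLC38A6 had a log2 fold change of 0.28 (SE 0.14, adjusted p = 0.13) and SLC38A10 one of 0.32 (SE 0.24, adjusted p = 0.30), and the libraries of both overlapped between the groups. SLC38A10, with a mean of 1.06 TPM over the 6 libraries, lay just above the filter. The lysosomal arginine sensor SLC38A9 was listed between 0.03 and 0.16 TPM and was not tested.

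Of the 18 members of the SLC6 family, 2 were tested and both were called higher. SLC6A9 (ENSSSCG00000039770) encodes GlyT1, a sodium- and chloride-coupled glycine carrier. SLC6A9 was listed at 8.50, 9.69 and 9.55 TPM in CON against 45.96, 44.85 and 46.69 TPM in CDCA. Both groups were tight and wide apart, with a ratio of means of 4.96 and a log2 fold change of 2.19 (SE 0.06, adjusted p = 2.7e-06). Its 3 most abundant listed transcripts went the same way, from means of 3.69, 2.76 and 2.63 TPM to 16.3, 16.85 and 12.4 TPM.

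SLC6A8 (ENSSSCG00000012771), which carries creatine and not an amino acid of proteins, was second to SLC1A5 in mean level over the 6 libraries. It was listed at 70.99, 80.18 and 77.61 TPM in CON against 183.50, 204.57 and 159.72 TPM in CDCA. The CDCA libraries were more spread than the CON libraries but all lay above them, and the log2 fold change was 1.24 (SE 0.09, adjusted p = 8.3e-05). Its 2 listed transcripts had ratios of means of 2.67 and 2.16.

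**Figure D4:**
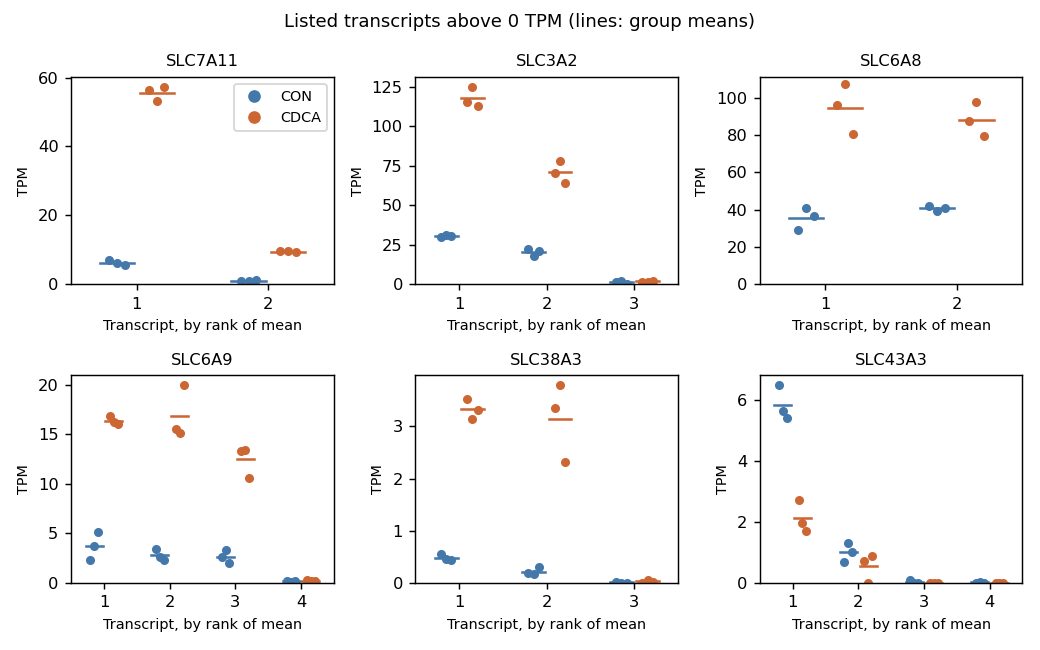
Level in TPM of each listed transcript above 0 for 6 called members, with transcripts ordered by their mean over the 6 libraries on the x axis, dots for single libraries and lines for group means. The 2 most abundant transcripts of SLC7A11, SLC3A2, SLC6A8, SLC6A9 and SLC38A3 were higher in every CDCA library than in any CON library, and the most abundant transcript of SLC43A3 was lower.

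In the plot of single transcripts, the 5 genes that rose show the same direction in both of their leading transcripts. The share of the leading transcript changed most in SLC38A3, from 68.6% of the gene's TPM in CON to 51.2% in CDCA. The deposited table gives no transcript IDs, so the transcripts can be told apart only by their rank.

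Of the 3 SLC43 members and the 4 SLC36 members, only 1 of each family was tested, and neither was called higher. SLC43A3 (ENSSSCG00000033998), a carrier of purine nucleobases that belongs to a family of large neutral amino acid carriers, was listed at 7.26, 6.95 and 6.43 TPM in CON against 3.43, 1.95 and 2.58 TPM in CDCA. The groups did not overlap, and the log2 fold change was -1.13 (SE 0.15, adjusted p = 0.0010). Without CDCA replicate 2 it was -0.98, just under the limit for a call. The amino acid carriers of the family, SLC43A1 (LAT3) and SLC43A2 (LAT4), were listed at 0 and at 0.05 to 0.20 TPM.

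SLC36A4, which encodes PAT4, a carrier of proline and tryptophan, was listed at 4.02, 5.42 and 4.49 TPM in CON against 4.62, 4.29 and 4.59 TPM in CDCA, and its groups overlapped. The log2 fold change was -0.03 (SE 0.11, adjusted p = 0.83). SLC36A1 encodes PAT1, a proton-coupled carrier of small amino acids in lysosomes and at the brush border, and had a mean of 0.647 TPM, under the filter. It was listed at 1.68, 1.51 and 0.25 TPM in CON against 0.24, 0.06 and 0.14 TPM in CDCA. In CON, 94.5% of its TPM came from a transcript that was listed at 0 in all 3 CDCA libraries, and CON replicate 3 was near the CDCA libraries. Without the filter, its adjusted p was 0.12.

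SLC7A6OS was listed at 12.05, 11.09 and 10.60 TPM in CON against 9.66, 11.05 and 10.45 TPM in CDCA. It lies next to SLC7A6 in the RefSeq gene order, and whether counting used the strand is not given in the sources used here. Its libraries overlapped, and the log2 fold change was -0.11 (SE 0.07, adjusted p = 0.28).

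**Figure D5:**
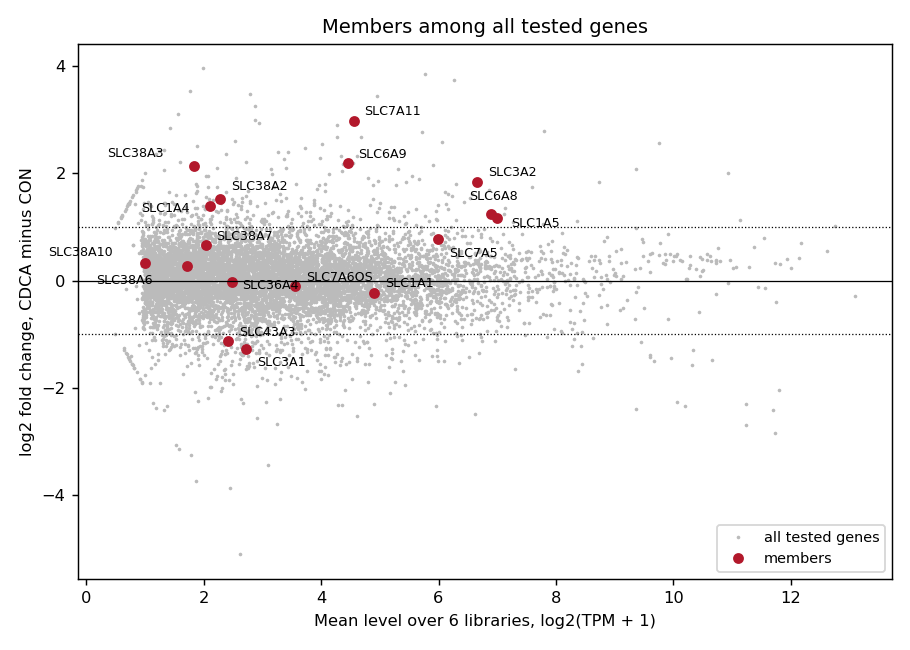
Log2 fold change of TPM + 1, CDCA minus CON, on the y axis against the mean level in log2(TPM + 1) on the x axis for the 8708 tested genes (grey) and the 17 tested members (red, named). Dotted lines mark -1 and 1; SLC7A11 lies at 2.98, and 8 members lie above 1 and 2 below -1.

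In the plot of all tested genes, the members that rose were found at low and at high levels alike. The order of the most abundant members changed between the groups. In CON, the mean levels ran from SLC1A5 (84.3 TPM) to SLC6A8 (76.3 TPM), SLC3A2 (52.3 TPM), SLC7A5 (47.5 TPM) and SLC1A1 (31.3 TPM). In CDCA, SLC3A2 (190 TPM), SLC1A5 (190 TPM) and SLC6A8 (183 TPM) came ahead of SLC7A5 (82.3 TPM) and SLC7A11 (65.1 TPM), which had been rank 9 in CON. SLC1A5 was above SLC6A8 in each of the 3 CON libraries. In CDCA, the order of SLC3A2, SLC1A5 and SLC6A8 differed from library to library, so their order by mean there is not larger than the spread between replicates.

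The summed level of the 56 transporters was 344 ± 9.3 TPM (SD, n = 3) in CON but 828 ± 26 TPM (SD, n = 3) in CDCA, which made 2.41 times the CON level. The 5 members of highest mean, SLC1A5, SLC6A8, SLC3A2, SLC7A5 and SLC7A11, held 77.8% ± 0.46 (SD, n = 3) of this sum in CON and 85.8% ± 0.99 (SD, n = 3) in CDCA. By family, the sum went from 117 to 223 TPM for SLC1, from 62.0 to 194 TPM for SLC3, from 86.8 to 230 TPM for SLC6, from 57.1 to 151 TPM for SLC7 and from 8.06 to 22.5 TPM for SLC38. It went from 7.0 to 2.82 TPM for SLC43 and from 5.82 to 4.74 TPM for SLC36. Each of these sums is a description and rests mostly on its most abundant members.

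The other 40 members were not tested, with means of at most 0.772 TPM. Of these, 9 were listed at 0 in all libraries, among them SLC6A14, SLC6A19, SLC7A10, SLC7A13 and SLC43A1. SLC6A19 encodes B0AT1, the main apical carrier of neutral amino acids in the small intestine. A level at or near 0 in this table need not mean that the gene was silent, because genes in common use were listed near 0 as well, such as ATF4 at no more than 0.04 TPM and ASNS at no more than 0.19 TPM in any library, both picked after their values were seen. The arginine and lysine carrier SLC7A1 was listed at 0 to 0.28 TPM and the taurine carrier SLC6A6 at 0 to 0.04 TPM.

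Of the 31 untested members above 0 in some library, 8 had every CDCA library above every CON library and 1, SLC36A1, had every CDCA library below. Among all 13841 genes under the filter and above 0 in some library, these shares were 9.72% and 5.92%. The member just under the filter was SLC7A3 (CAT3, a carrier of arginine and lysine), at 0.41, 0.47 and 0.48 TPM in CON against 1.5, 0.94 and 0.83 TPM in CDCA. SLC6A20, which encodes the proline carrier SIT1, was listed at 0.31, 0.36 and 0.34 TPM in CON against 1.07, 0.98 and 1.02 TPM in CDCA. In a fit with no filter on low values, in which 20.6% of 22549 genes had an adjusted p under 0.05, 4 of the untested members did so: SLC6A20 (log2 fold change 0.60, SE 0.09, adjusted p = 0.0064), SLC7A8 (0.47), SLC6A5 (0.07) and SLC6A7 (0.07). The last 2 were listed at no more than 0.09 TPM in any library. These 4 were named after their values were seen.

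Genes that act beside the transporters were read from the same fit, from lists that, like the members, were chosen with earlier results of these data known, so their counts are descriptions. They are to be read against all 8708 tested genes, of which 3.51% were called higher and 3.9% lower, 29.3% were higher and 23.9% lower with an adjusted p under 0.05, and 32.3% were higher and 26.7% lower with an unadjusted p under 0.05. The list of other carriers and accessory proteins had 7 tested genes, and by limma none was called in either direction, while 3 were higher and 2 lower with an unadjusted p under 0.05 as well as with an adjusted p under 0.05. With so few genes, these counts are near the shares of all tested genes. CLTRN, or collectrin, the partner that brings apical SLC6 carriers to the membrane, fell from a mean of 8.82 ± 1.1 TPM (SD, n = 3) in CON to one of 4.61 ± 0.42 TPM (SD, n = 3) in CDCA (log2 fold change -0.80, SE 0.11, adjusted p = 0.00093). ARL6IP5, known to restrain the glutamate carrier SLC1A1, rose from a mean of 57.6 ± 1.2 TPM (SD, n = 3) to one of 101 ± 3.7 TPM (SD, n = 3), with a log2 fold change of 0.80 (SE 0.04, adjusted p = 2.0e-05). CTNS, the lysosomal cystine exporter, rose from a mean of 3.14 ± 0.34 TPM (SD, n = 3) to one of 6.19 ± 0.54 TPM (SD, n = 3), with a log2 fold change of 0.80 (SE 0.10, adjusted p = 0.00068).

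In the list of amino acid sensing genes, 30 had passed the filter, and the median of their log2 fold changes was 0.20. Of these, 1 was called higher and none lower by limma, while 10 were higher and 5 lower with an adjusted p under 0.05, and 14 and 6 with an unadjusted p under 0.05. The counts of called genes and of those with an adjusted p under 0.05 are close to what the shares of 3.51% and 29.3% higher would give for a list of this size. SESN2, the leucine sensor sestrin 2, was the one called, with a log2 fold change of 2.94 (SE 0.08, adjusted p = 2.8e-06). CASTOR1, an arginine sensor, rose from a mean of 3.20 ± 0.86 TPM (SD, n = 3) to one of 7.28 ± 0.14 TPM (SD, n = 3). Its log2 fold change of 1.00 (SE 0.15, adjusted p = 0.0017) stopped just short of the limit. The 1 TPM added before the log makes this fold change smaller than that of the means. RRAGC, a Rag GTPase that recruits mTORC1 to lysosomes, fell from a mean of 50.9 ± 7.1 TPM (SD, n = 3) to one of 27.0 ± 2.9 TPM (SD, n = 3), with a log2 fold change of -0.89 (SE 0.11, adjusted p = 0.00084).

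The list of regulators of transporter genes had 25 tested gene IDs, of which 10 were called higher and none lower, with a median of 0.64. DDIT3 is listed under 2 gene IDs, both among the 10, and reads of such copies may have been split between them. With an adjusted p under 0.05, 16 were higher and 3 lower, and with an unadjusted p under 0.05, 17 and 3. Among all tested genes, 3.51% were called higher and 29.3% were higher with an adjusted p under 0.05. The counts of this list lay above these shares. Because the list was chosen with earlier results known, no enrichment is drawn from them. Its 3 largest changes were those of the stress response factors DDIT3 (log2 fold change 3.86) and NUPR1 (3.73) and of CHAC1 (2.90), an enzyme that breaks down glutathione. NFE2L2, which encodes the antioxidant factor NRF2 and was named after its value was seen, rose from a mean of 39.6 ± 1.4 TPM (SD, n = 3) to one of 67.8 ± 3.9 TPM (SD, n = 3), under the limit for a call.

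Of 24 tested genes of amino acid use, 8 were called higher and none lower, with a median of 0.58, and 14 were higher and 5 lower with an adjusted p under 0.05. With an unadjusted p under 0.05, 14 were higher and 6 lower. The count of genes called higher was above the 3.51% of all tested genes, whereas the 5 lower genes were near the 23.9%. This list too was chosen with earlier results known, so no enrichment is drawn from its counts. PSAT1 and PHGDH, which make serine, had log2 fold changes of 2.77 and 2.09. CTH, which makes cysteine from cystathionine, rose from a mean of 22.9 ± 2.8 TPM (SD, n = 3) to one of 91.6 ± 2.6 TPM (SD, n = 3), a log2 fold change of 1.96 (SE 0.09, adjusted p = 1.1e-05). CTH and SLC7A11 are separate routes to intracellular cysteine, and both were higher in all 3 CDCA libraries than in any CON library.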

How the data were processed

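The authors sequenced TruSeq RNA libraries of IPEC-J2 cells on an Illumina instrument, quantified them by RSEM and gave the deposited table in TPM, rounded to 2 decimals, for 63041 transcripts of 31908 gene IDs. The submitters' processing notes also name Bowtie 0.12.2 and the mouse build mm10, whereas the gene IDs are Ensembl pig IDs. The annotation release and any filter are not given in the sources used here, nor is the number of reads behind a value, so no counting interval was computed.

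TPM were summed per gene ID. Members were matched by the deposited gene name. Genes of other lists were named from a table of Ensembl IDs, then from the deposited names. limma 3.58.1 in R 4.3.3 (lmFit, eBayes with trend) was run on log2(TPM + 1) for all genes whose mean reached 1 TPM, with Benjamini-Hochberg adjustment over all of them. Fold changes on this scale understate those of low genes. edgeR, which the authors used, needs counts and was not run. The steps were tested on simulated data.

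The members and lists were chosen with earlier results of these data known. Named genes were all called members, SLC7A11, SLC3A2 and SLC7A5, the 10 members of highest mean, the highest and the most changed tested member of each family, members with an adjusted p under 0.05 and a log2 fold change over 0.5 in size, those next to the filter, and the 3 largest changes of each list. Alternatives were another pseudocount, other filters and scalings, the highest listed transcript, a replicate block and each library left out. The count without SLC7A6OS was added after seeing the data. A planned search for motifs in promoters was not run, since promoter sequences were not used here.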

Additional observations from a re-analysis of the deposited data

How the results depend on the processing

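The 8 members called higher remained 8 in number under all 14 alternatives. Leaving out each library gave 0 to 2 members called lower, and no filter on low values gave 1, since SLC3A1 lost its call there (adjusted p = 0.10) as it did in 5 of the 6 fits without a library; without CDCA replicate 2 SLC43A3 fell short as well. For the tested members, the median log2 fold change was 0.86 with log2(TPM + 0.1), 0.030 with no filter, where most of the 48 members fitted lie near 0 TPM, 0.63 with at least 1 TPM in either group, 0.73 with the same median ratio, 0.63 with totals without the mtDNA-encoded genes, 0.97 with the highest listed transcript and 0.97 without SLC7A6OS; it lay between 0.76 and 0.99 with each library left out. The fold change of SLC36A4, which was not called, ranged from -0.11 to 0.067 with each library left out and was above 0 only without CON replicate 2. Of 236 pairs of a tested member and an alternative, 7 lost a call, 0 gained one and 1, that of SLC36A4, changed sign. With a pseudocount of 0.1 TPM, 509 of all tested genes were called higher and 505 lower, against 306 and 340. With the replicate block, 8 members were called higher and 2 lower, and no call changed. The deviations of libraries with the same number had correlations of -0.035, -0.092 and -0.051, so the numbers were not taken to pair the libraries. The study gives the range of clean reads over its samples, but not the reads behind each value. How depth limits the low members is therefore unknown.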
